A study of Homo sapiens with 4 samples.

Results

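The genes described are 10 components of the Wnt/beta-catenin pathway (CTNNB1, AXIN1, AXIN2, APC, TCF7, TCF7L2, LEF1, DKK1, ZNRF3 and LGR4), chosen by name as transducers, transcription factors and feedback targets out of 16878 genes with expression values. Their transcripts were quantified by RNA sequencing of the human pancreatic cancer line PANC-1, which is an established line, in 2 libraries from cells that received a control transfection (Control) and 2 libraries from cells transfected with a small interfering RNA against SIRT1 (siSIRT1). Cells in both groups had been transfected and were collected 48 h later, and no other allele or agent is named. SIRT1 is an NAD-dependent protein deacetylase, and the comparison asks which transcripts change when its messenger RNA is reduced. The sources name 1 siRNA sequence for SIRT1 and do not say whether the 2 libraries of a group came from separate cultures, so the p-values measure the spread between these libraries, which may be technical.

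In the canonical Wnt pathway, a Wnt ligand binds a Frizzled receptor together with LRP5 or LRP6. Without ligand, beta-catenin is bound by a complex of Axin, APC, GSK3 and casein kinase 1, phosphorylated and degraded. With ligand, the complex is inhibited, beta-catenin enters the nucleus and binds the DNA-binding factors of the TCF/LEF family. AXIN2, ZNRF3 and DKK1 are transcribed by this route in many tissues and restrain it, and LGR4 is a receptor for the R-spondins, which remove ZNRF3 and its relative RNF43 from the cell surface.

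The siRNA is shown first because it is the agent that separates the groups. It is printed as the study lists it, with its reverse complement, the guide strand, whose bases 2 to 8 (the seed, in capitals) pair with a target.

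siSIRT1 as listed: gugucaugguuccuuugca

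guide strand: uGCAAAGGaaccaugacac

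The 19 bases occur once in the canonical SIRT1 transcript, across an exon junction, with 8 bases at chr10:69666687-69666694 and 11 bases at chr10:69667803-69667813 (GRCh37). SIRT1 itself was at 10.46 and 10.25 FPKM (fragments scaled to transcript length and library size) in the Control libraries, against 1.80 and 2.05 FPKM after siSIRT1. The siSIRT1 mean was 18.6% of the Control mean (log2 fold change -1.96, SE 0.11, adjusted p = 1.33e-05 by limma). All fold changes were computed on log2(FPKM + 1), so those of genes with few reads come out too small. P-values were adjusted over the 12191 genes that averaged 1 FPKM or more, the genes called tested.

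About 8890000 and 9110000 reads lay behind the Control libraries and 8850000 and 9010000 behind the siSIRT1 libraries, as estimated from the steps between low FPKM values. Over all genes tested, 4521 passed an adjusted p of 0.05, of which 64.8% were higher in siSIRT1, and this share was 50.2% with median-of-ratios scaling and 53.3% with quantile normalization. The epithelial keratins KRT8 (2164 to 2745 FPKM), KRT18 and KRT19 were abundant in every library, while KRT7 (2.89 to 4.04 FPKM), EPCAM and CDH1 were low. VWF, an endothelial marker, was at no more than 0.04 FPKM, whereas the leukocyte marker PTPRC was at 0.97 to 1.29 FPKM and the endothelial marker PECAM1 at 0.59 to 0.75 FPKM.

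DKK1, LGR4, AXIN2, TCF7 and TCF7L2 were lower in siSIRT1, at between 59.5% and 79.2% of their Control means. CTNNB1, AXIN1, APC and ZNRF3 did not pass the test, and LEF1 was below the expression filter. Of the 9 genes tested, 5 were lower and 0 were higher, where 13.1% of all genes tested were lower, 24% were higher and 37.1% were called in either direction. The log2 fold change was below 0 for 8 of the 9 genes, under every scaling and adjustment tried, and their median was -0.33 beside a median of 0.07 over all genes tested. The 2 groups did not overlap for any of the 9 genes, a property shared by 69% of all genes tested. In bulk RNA, fewer cells that express a gene and less RNA per cell cannot be told apart.

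**Figure D1:**
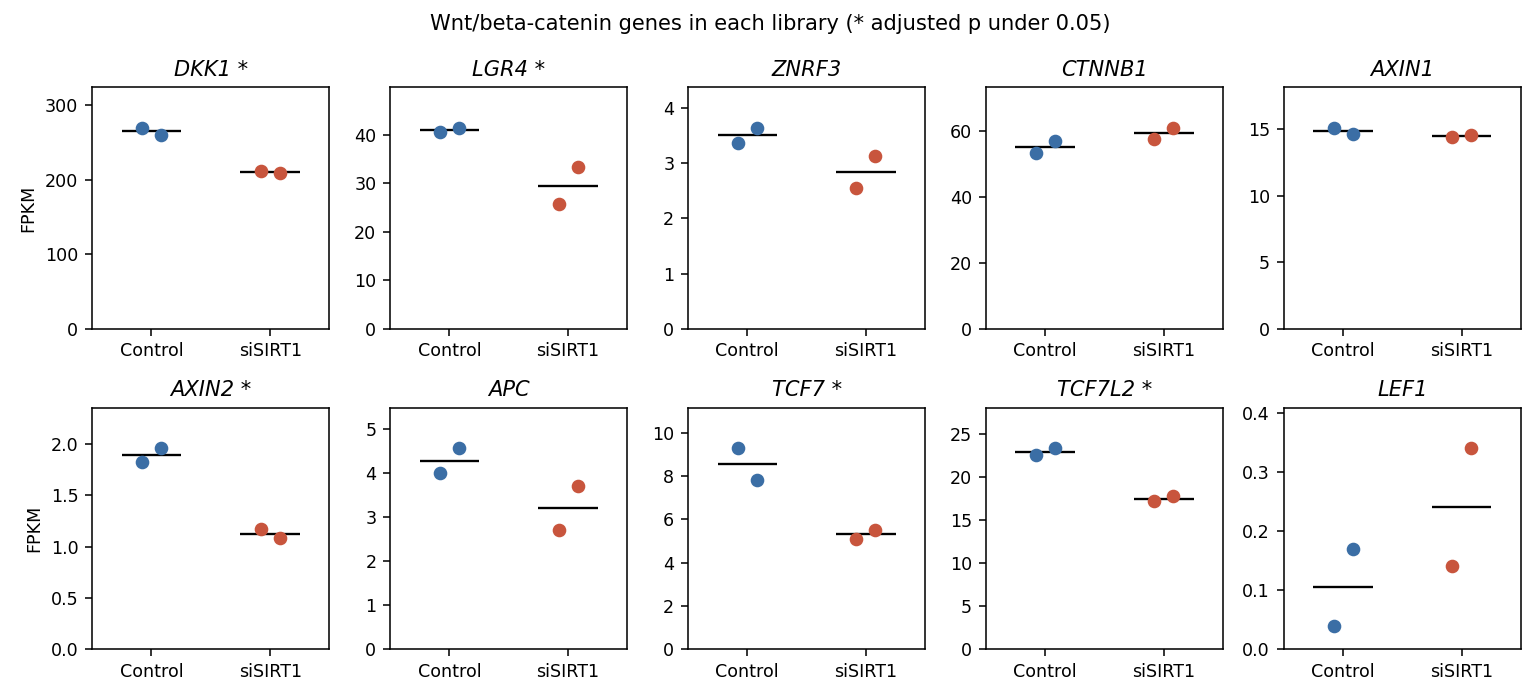
FPKM of each Wnt gene in each library (points; horizontal lines are the mean of the 2 libraries of a group, axes are linear and start at 0, and an asterisk marks an adjusted p under 0.05). The siSIRT1 points of DKK1, LGR4, AXIN2, TCF7 and TCF7L2 lie below both Control points, CTNNB1 and AXIN1 lie close to level, and LEF1 stays at or below 0.34 FPKM.

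The secreted and membrane components come first. DKK1, which binds LRP5 and LRP6 and blocks Wnt signalling, was the most abundant of the 10 transcripts, at 270 and 260 FPKM under Control transfection, against 211 and 209 FPKM after siSIRT1. Both siSIRT1 libraries were below both Control libraries, with means of 265 ± 6.72 and 210 ± 1.34 FPKM (SD, n = 2). DKK1 fell by 0.33 on the log2 scale (SE 0.06, adjusted p = 0.00231 by limma), to 79.2% of Control. Without Control replicate 1 its adjusted p was 0.0696. The gene lies at chr10:54074041-54077417 on the plus strand (GRCh37) and has 4 exons in its canonical transcript.

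LGR4, the R-spondin receptor, was at 40.5 and 41.5 FPKM under Control transfection, against 25.6 and 33.2 FPKM after siSIRT1. The Control libraries were close to each other and the siSIRT1 libraries were spread, with replicate 1 the lower, and the groups did not overlap. LGR4 fell to 71.8% of Control (log2 fold change -0.47, SE 0.11, adjusted p = 0.0092 by limma), and the adjusted p was 0.0742 when genes of any expression level entered the fit. Its log2 fold change was -0.29 without siSIRT1 replicate 1 and -0.66 without siSIRT1 replicate 2, and it passed the test in both fits. The gap between the 2 siSIRT1 libraries was 0.36 on the log2 scale for LGR4, 0.34 for APC and 0.22 for ZNRF3. Across all genes, transcripts of at least 4396 bases were higher in siSIRT1 replicate 2 than in replicate 1 by a median of 0.11 on that scale, and the part of this length trend in the 3 gaps was not tested.

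ZNRF3, the ubiquitin ligase that removes Frizzled receptors, was at 3.36 and 3.65 FPKM under Control transfection, against 2.55 and 3.14 FPKM after siSIRT1. The groups did not overlap, but the difference did not pass the test (log2 fold change -0.23, SE 0.13, adjusted p = 0.204 by limma).

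Among the cytoplasmic transducers, the transcript of beta-catenin itself was not called. CTNNB1 was at 53.5 and 56.9 FPKM under Control transfection, against 57.6 and 61.1 FPKM after siSIRT1. Its log2 fold change was 0.10 (SE 0.07, adjusted p = 0.252 by limma), and 0.02 with median-of-ratios scaling. These values concern RNA, and beta-catenin is controlled mainly through the stability of the protein, which was not measured in these libraries.

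AXIN1 and AXIN2 encode related scaffold proteins of the destruction complex, AXIN1 expressed in most tissues and AXIN2 as a transcriptional target of the pathway. AXIN1 was at 15.1 and 14.7 FPKM under Control transfection, against 14.4 and 14.6 FPKM after siSIRT1, a log2 fold change of -0.04 (SE 0.08, adjusted p = 0.742 by limma). AXIN2 was at 1.82 and 1.96 FPKM under Control transfection, against 1.17 and 1.08 FPKM after siSIRT1. The AXIN2 values were well separated, with means of 1.89 ± 0.099 and 1.13 ± 0.064 FPKM (SD, n = 2). AXIN2 fell to 59.5% of Control (log2 fold change -0.44, SE 0.13, adjusted p = 0.0306 by limma).

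The AXIN2 call rested on low expression, with about 68 and 75 reads behind the Control values and about 43 and 41 behind the siSIRT1 values. It passed the threshold in 0 of the 4 fits that left out 1 library, with adjusted p-values of 0.1002 and 0.169 without Control replicates 1 and 2 and of 0.0534 and 0.0693 without siSIRT1 replicates 1 and 2, while its log2 fold change stayed between -0.48 and -0.41. With 0.1 FPKM added in place of 1, the log2 fold change was -0.70 (adjusted p = 0.0347). Within each library, the log2 ratio of AXIN2 to AXIN1 on FPKM + 1 was -2.46 ± 0.080 in Control and -2.87 ± 0.054 in siSIRT1 (SD, n = 2). This ratio, which does not depend on scaling between libraries apart from the added 1, was lower in both siSIRT1 libraries. The two-sided exact permutation test gave p = 0.333, the smallest value that 2 against 2 libraries allow, and the value adjusted over the 3 ratios computed was 0.333. AXIN2 lies at chr17:63524681-63557766 on the minus strand and AXIN1 at chr16:337440-402723 on the minus strand (GRCh37).

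APC, the other large scaffold of the complex, was at 4.0 and 4.57 FPKM under Control transfection, against 2.72 and 3.72 FPKM after siSIRT1. The siSIRT1 values were lower but differed from each other by more than the gap between the groups. The log2 fold change was -0.33 (SE 0.15) and did not pass the test (adjusted p = 0.109 by limma). It passed after removal of each library's trend on GC content (adjusted p = 0.0427, an adjustment chosen after seeing the data) and without siSIRT1 replicate 2 (-0.50, adjusted p = 0.0317). The log2 fold change was -0.16 without siSIRT1 replicate 1 (adjusted p = 0.390), and the adjusted p was 0.161 and 0.404 without Control replicates 1 and 2.

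The TCF/LEF factors bind DNA and recruit beta-catenin to target genes. TCF7L2 was the most abundant of the 3, at 22.5 and 23.4 FPKM under Control transfection, against 17.2 and 17.8 FPKM after siSIRT1. Both groups were tight and separate. TCF7L2 fell to 76.2% of Control (log2 fold change -0.37, SE 0.07, adjusted p = 0.0046 by limma). Without Control replicate 2 the adjusted p was 0.0564.

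TCF7 was at 9.30 and 7.81 FPKM under Control transfection, against 5.11 and 5.52 FPKM after siSIRT1. The Control libraries were further apart than the siSIRT1 libraries, and the groups did not overlap. TCF7 fell to 62.1% of Control (log2 fold change -0.59, SE 0.12, adjusted p = 0.00451 by limma). Without Control replicate 1 the adjusted p was 0.0527. The tables pool 5 listed transcripts of TCF7 and 13 of TCF7L2 into 1 value per gene, so forms with and without the beta-catenin binding part of the protein cannot be told apart.

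LEF1 was nearly silent, at 0.04 and 0.17 FPKM under Control transfection, against 0.14 and 0.34 FPKM after siSIRT1. These values correspond to about 1 and 5 reads for Control, 4 and 11 for siSIRT1, beside a floor of 0.0957 FPKM for 3 reads. The groups overlapped, and no difference was detectable at this depth. The log2 ratio of TCF7 to TCF7L2 within a library was -1.33 ± 0.195 in Control and -1.55 ± 0.034 in siSIRT1 (SD, n = 2), and that of LEF1 to TCF7L2 was -4.44 ± 0.084 and -3.90 ± 0.132. With LEF1 near the floor, the last ratio depends on the value added before taking logs: its difference between the groups was 0.54 with 1 FPKM added and 1.13 with 0.1. Both gave p = 0.333 in the exact permutation test.

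**Figure D2:**
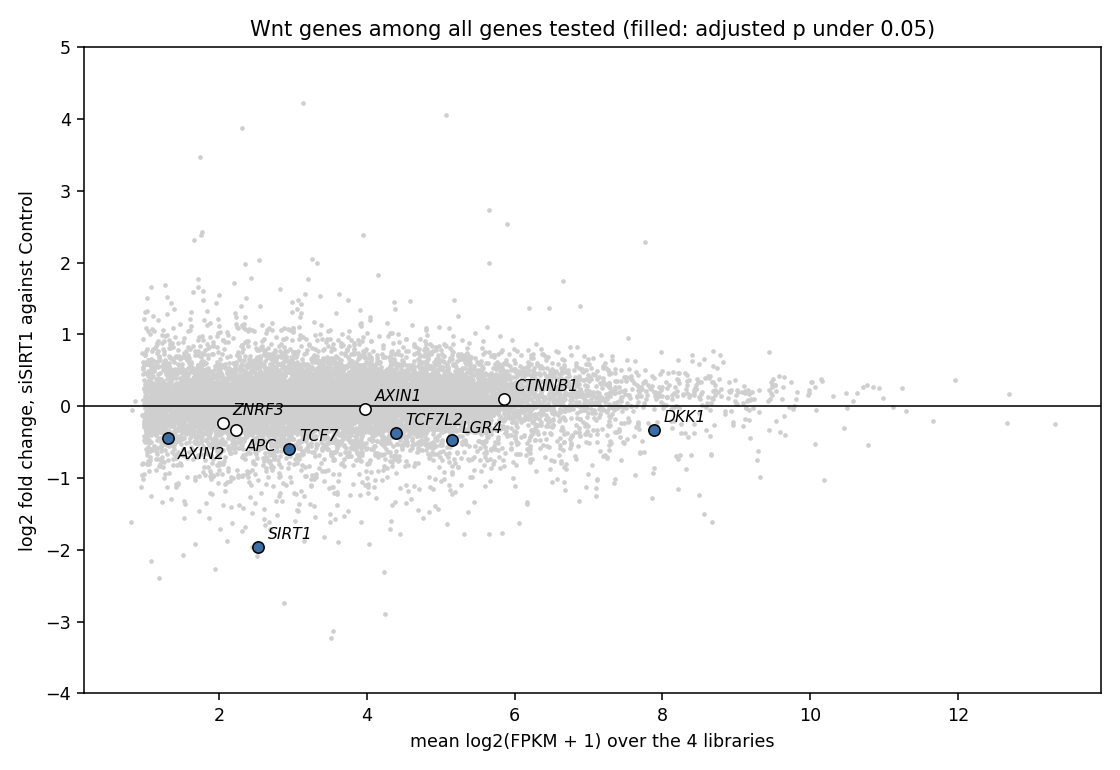
Log2 fold change of siSIRT1 against Control (vertical axis) against the mean log2(FPKM + 1) over the 4 libraries (horizontal axis) for all genes tested, in gray, with 9 Wnt genes and SIRT1 marked (filled, adjusted p under 0.05; open, not called). The called Wnt genes lie between -0.59 and -0.33, within the range of the other genes, and SIRT1 lies at -1.96.

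The study states thresholds of a fold above 1.2 with p under 0.001, taken here as the unadjusted limma p. At these, TCF7, TCF7L2 and DKK1 passed, where 6.89% of all genes tested passed as lower. The test behind the study's own p-values is not named, so this share is not the study's. With median-of-ratios scaling AXIN2, DKK1, LGR4, TCF7 and TCF7L2 were lower, where 16.7% of all genes tested were. The plot of fold changes under other processing shows each gene under all settings.

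**Figure D3:**
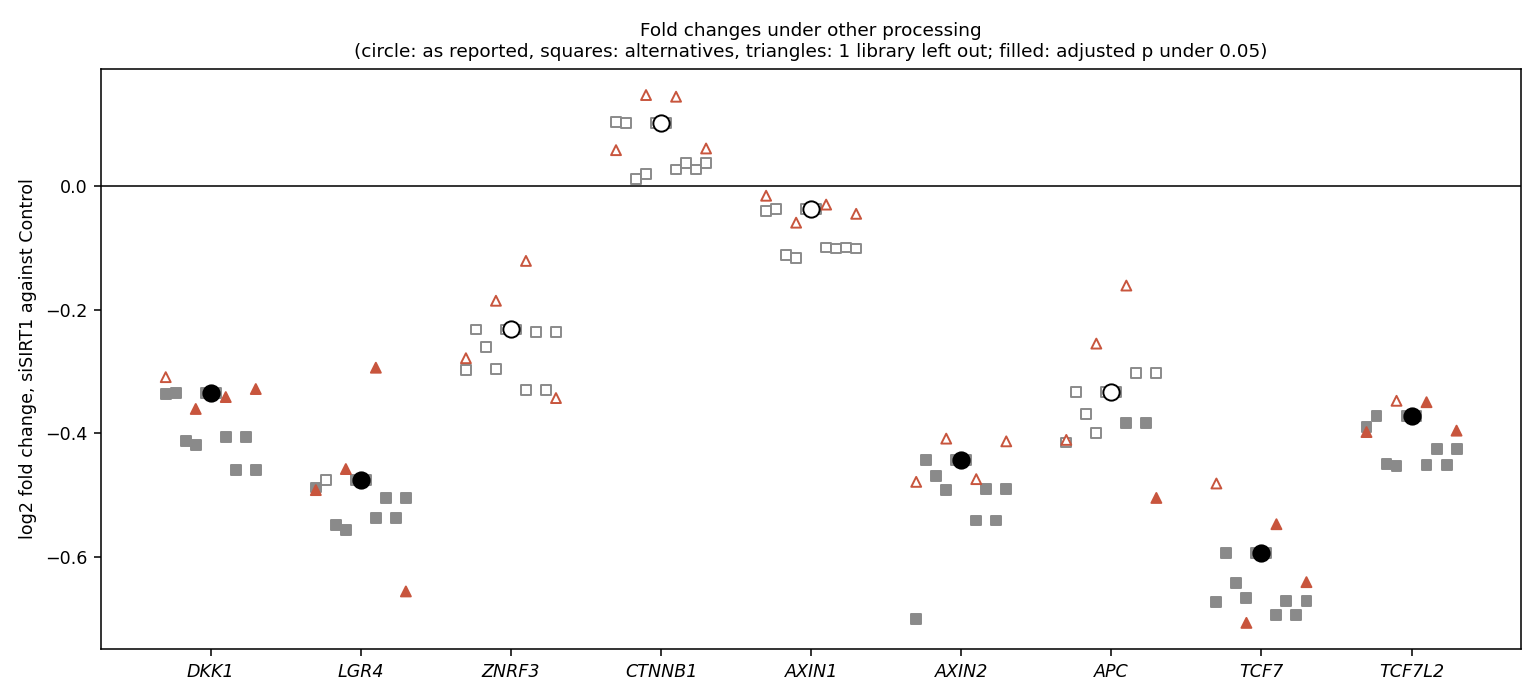
Log2 fold change of siSIRT1 against Control for the 9 Wnt genes tested, as reported (black circles), under 10 alternative settings (gray squares) and with 1 library left out (red triangles). Symbols are filled at an adjusted p under 0.05. No gene crossed 0, AXIN2 was open in all 4 triangles, and APC was filled in 4 of its 14 alternative symbols.

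Short sequences were read for matches to the siRNA seed, since a guide strand can also bind other transcripts through it. A match to bases 2 to 8 (CCTTTGC) was absent from the canonical 3′ UTRs of the 5 lower genes. AXIN2 held 1 match of the weaker kind, bases 2 to 7 with an adenine after them, which reads CTTTGCA, at base 523 of its 3′ UTR. It is printed with the match in capitals, in the direction of the transcript (chr17:63525558-63525578, minus strand, GRCh37). Below it is 1 of the 2 matches to bases 2 to 8 in ZNRF3, which was not called (chr22:29449817-29449837, plus strand).

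AXIN2 3′ UTR: aattatgCTTTGCActacgtc

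ZNRF3 3′ UTR: tccgagtCCTTTGCctctttt

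ZNRF3 held 2 matches to bases 2 to 8 and LEF1 held 1. The ZNRF3 match not printed, at base 935 of its 3′ UTR, was also followed by an adenine, so ZNRF3 held CTTTGCA too. Among 11930 tested genes with a 3′ UTR, 15.6% held CCTTTGC and 17.8% held CTTTGCA. The median log2 fold change was 0.06 with CCTTTGC and 0.08 without, and 0.04 with CTTTGCA and 0.09 without. The share of genes that were lower was 14.5% with CTTTGCA and 12.8% without. Whether the siRNA acted on AXIN2 directly was not tested.

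Promoter windows of 300 bases around the start of transcription (RefSeq, GRCh38.p14) were read for 8 of the 10 genes, in 12 windows. AXIN2 and ZNRF3 had no window in the set used. They were searched on both strands for the letters CTTTGAA as well as CTTTGAT, and likewise for CTTTGTA together with CTTTGTT, the core that TCF/LEF factors recognise, and 13.8% of all 35116 windows held at least 1 of them. Of the 12 windows, 3 held a match, 1 each of DKK1, TCF7 and TCF7L2. These 3 are printed because they held a match, each in the direction of its gene and with the matching letters in capitals. All 3 genes were lower in siSIRT1, as was LGR4, whose window held no match.

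DKK1, chr10:52314031-52314330, plus strand: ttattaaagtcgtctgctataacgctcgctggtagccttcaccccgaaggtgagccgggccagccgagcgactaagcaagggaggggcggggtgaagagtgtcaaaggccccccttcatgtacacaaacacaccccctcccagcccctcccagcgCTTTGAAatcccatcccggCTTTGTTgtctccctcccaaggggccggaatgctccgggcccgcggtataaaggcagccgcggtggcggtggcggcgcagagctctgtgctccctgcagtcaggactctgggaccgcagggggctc

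TCF7, chr5:134123368-134123667, plus strand: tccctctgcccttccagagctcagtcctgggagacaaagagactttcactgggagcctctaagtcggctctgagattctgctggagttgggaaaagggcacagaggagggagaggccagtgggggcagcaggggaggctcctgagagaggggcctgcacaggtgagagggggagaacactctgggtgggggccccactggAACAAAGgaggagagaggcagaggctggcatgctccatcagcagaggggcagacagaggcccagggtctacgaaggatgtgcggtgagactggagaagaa

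TCF7L2, chr10:113126383-113126682, plus strand: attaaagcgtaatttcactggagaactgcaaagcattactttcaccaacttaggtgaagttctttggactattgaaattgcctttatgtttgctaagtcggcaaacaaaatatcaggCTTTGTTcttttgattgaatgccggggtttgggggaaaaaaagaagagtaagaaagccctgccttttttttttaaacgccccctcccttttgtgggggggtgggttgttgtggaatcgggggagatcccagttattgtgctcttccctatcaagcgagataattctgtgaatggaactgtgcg

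The DKK1 window held CTTTGAA and CTTTGTT, and the other 2 windows held CTTTGTT, which in TCF7 lay on the opposite strand and reads AACAAAG. The windows of TCF7 and TCF7L2 belong to 1 of 2 and 1 of 3 listed starts. The windows of LGR4, AXIN1, CTNNB1, LEF1 and APC did not hold these letters. The matches are letters in these windows, and binding was not measured here.

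Other genes of the pathway were called in both directions, in proportions that depended on the scaling. Of 115 other Wnt genes in 9 role lists, 109 were measured and 80 passed the expression filter. Of these 80, 18 were higher and 23 lower in siSIRT1, and 39 were not called, with a median log2 fold change of -0.07. The shares were 22.5% higher and 28.8% lower, beside 24% and 13.1% of all genes tested. With median-of-ratios scaling, 12 of the 80 were higher and 28 lower, where 2043 of the 12191 genes tested were higher and 2030 (16.7%) lower. After the GC adjustment 12 of the 80 were higher and 31 lower, where 2307 of the 12191 were higher and 2250 lower.

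**Figure D4:**
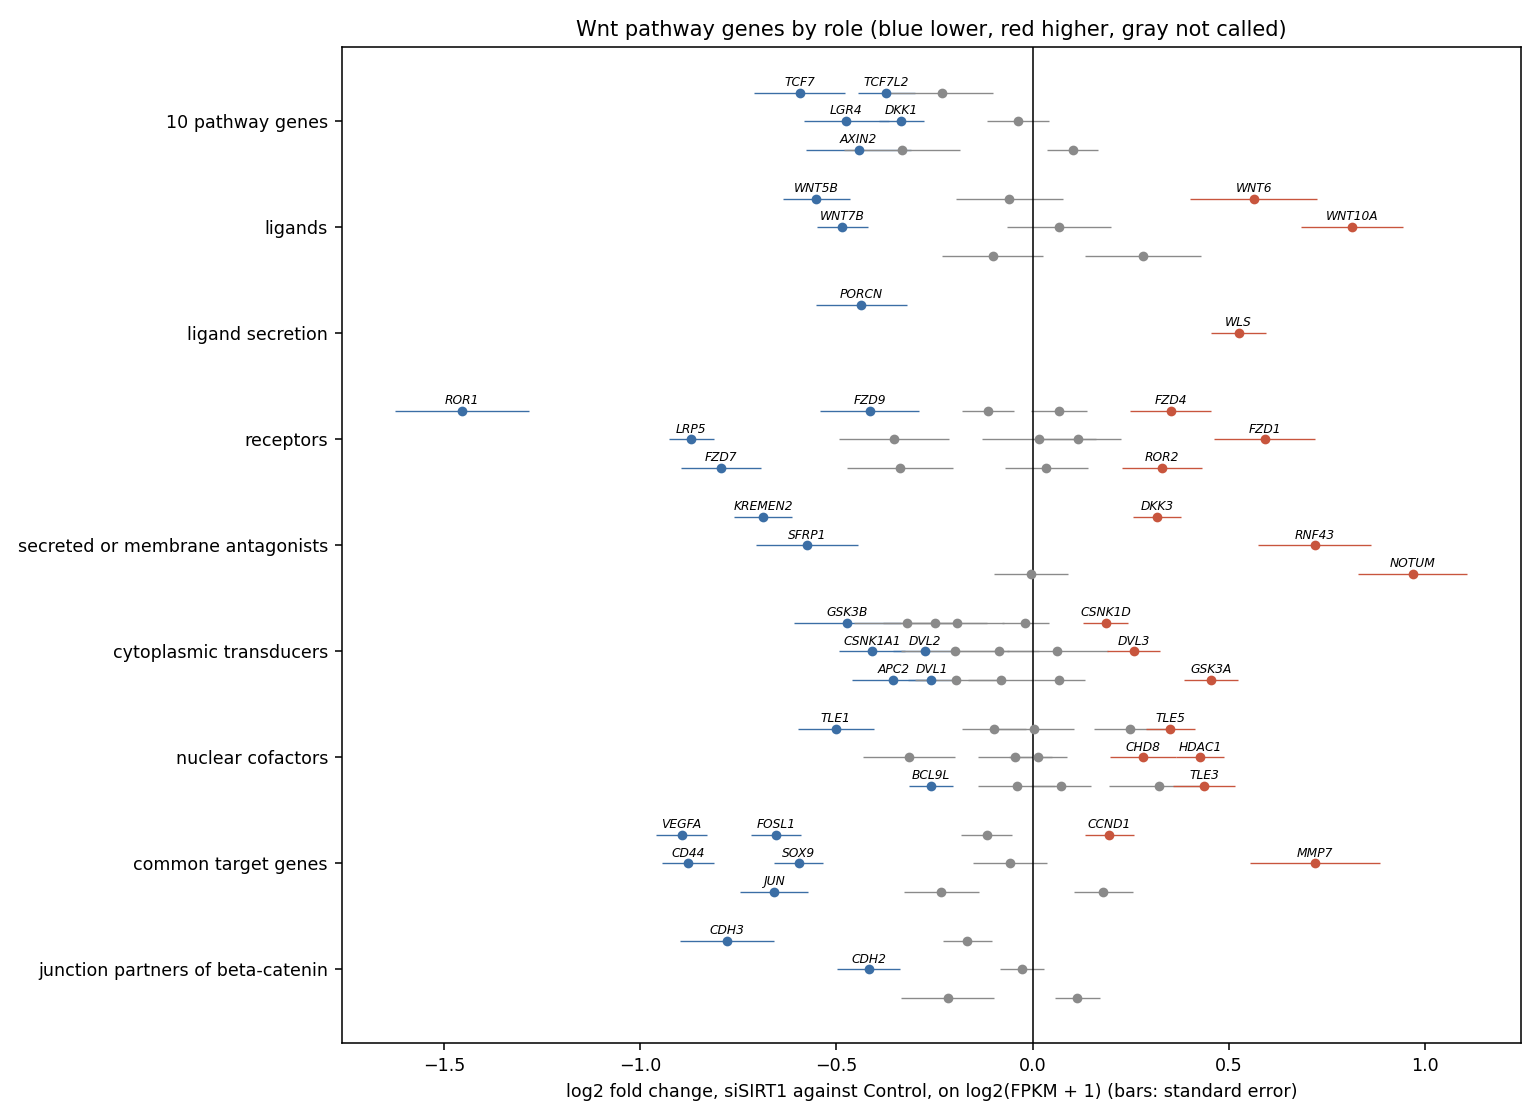
Log2 fold change of siSIRT1 against Control, with its standard error, for the Wnt genes tested, in rows by role (blue, lower; red, higher; gray, adjusted p of 0.05 or more; height within a row has no meaning). The top row holds the 10 genes described above without LEF1. Ligands, receptors and antagonists lie on both sides of 0, and ROR1 at -1.46 and NOTUM at 0.97 are the outermost.

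Of 8 Wnt ligands tested, 2 were higher (25%) and 2 lower (25%), beside 24% and 13.1% of all genes tested. WNT7B, the most abundant, was at 57.9 and 56.4 FPKM under Control transfection, against 42.1 and 39.1 FPKM after siSIRT1 (log2 fold change -0.48, adjusted p = 0.000713). WNT5B, a ligand of beta-catenin-independent signalling in many settings, went from 23.7 ± 0.488 to 15.9 ± 1.48 FPKM (SD, n = 2; -0.55, adjusted p = 0.00139). The higher ligands were expressed at a far lower level, WNT10A at 1.84 and 1.62 against 4.04 and 3.57 FPKM (0.82, adjusted p = 0.00168) and WNT6 at 0.63 and 1.03 against 1.51 and 1.88 FPKM (0.56, adjusted p = 0.0253). With a Control mean of 0.83 FPKM, WNT6 passed the expression filter only through its siSIRT1 values. That filter left out 10 of the 18 ligands measured. Among these 10, WNT2B was at 0.76 and 0.90 against 0.36 and 0.30 FPKM (about 75 and 91 against 35 and 30 reads). WNT11 was at 0.74 and 0.85 against 0.38 and 0.37 FPKM, and WNT16 at 0.22 and 0.16 against 0.17 and 0.37 FPKM. The WNT6 call was lost without Control replicate 1 (adjusted p = 0.174), without siSIRT1 replicate 2 (0.103), after the length adjustment (0.0619) and with no expression filter (0.0678). The 2 genes of ligand export parted as well, with WLS, the carrier of Wnt proteins to the cell surface, higher (31.5 ± 1.53 to 45.8 ± 2.37 FPKM, adjusted p = 0.000727) and PORCN, the acyltransferase that lipidates them, lower (12.7 ± 0.651 to 9.20 ± 1.53 FPKM, adjusted p = 0.0180). The PORCN call was lost without Control replicate 1 (adjusted p = 0.103), without siSIRT1 replicate 2 (0.0570) and with no expression filter (0.0823).

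Of 14 receptors tested, 3 were higher (21.4%) and 4 lower (28.6%), beside 24% and 13.1% of all genes tested. With median-of-ratios scaling, 1 receptor was higher and 5 were lower. Under that scaling the higher calls of FZD4 (adjusted p = 0.0631) and ROR2 (0.0779) were lost and LRP6 (0.0384) was lower. LRP5, the co-receptor that DKK1 binds, was at 142 and 137 FPKM under Control transfection, against 76.9 and 75.0 FPKM after siSIRT1. The 2 groups were far apart beside the spread within them, and the log2 fold change was -0.87 (adjusted p = 2.3e-05). FZD7, a Frizzled receptor, went from 9.99 and 10.02 to 5.61 and 5.09 FPKM (-0.79, adjusted p = 0.000566). ROR1, a receptor tyrosine kinase for WNT5A, was at 13.1 and 12.8 against 3.17 and 5.21 FPKM (-1.46, adjusted p = 0.000376).

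The R-spondins, ligands of LGR4, were at no more than 0.05 FPKM for the 3 measured, and RSPO1 and RSPO2 were listed at 0 in every library. LGR5, a relative of LGR4, was listed at 0 in both Control libraries and at 0.11 and 0.16 FPKM in siSIRT1. WNT3A and WNT8A were also listed at 0 in both Control libraries, and WNT7A and APCDD1 in both siSIRT1 libraries, with at most 0.18 FPKM elsewhere. RSPO3, WNT2, FZD10, DKK2, SFRP2 and ASCL2 were not analysed here.

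Of 6 antagonists tested, 3 were higher (50%) and 2 lower (33.3%), beside 24% and 13.1% of all genes tested. RNF43, which acts like ZNRF3 on Frizzled receptors, was at 0.65 and 0.48 FPKM under Control transfection, against 1.67 and 1.48 FPKM after siSIRT1 (0.72, adjusted p = 0.00515). With a Control mean of 0.565 FPKM, RNF43 passed the expression filter only through its siSIRT1 values (adjusted p = 0.0164 by limma with no filter). NOTUM, which removes the lipid of Wnt proteins, was at 1.5 and 1.79 against 3.78 and 4.6 FPKM (0.97, adjusted p = 0.000998). Like AXIN2, both are known as feedback targets of the pathway in other tissues, and here they were higher where AXIN2 was lower. KREMEN2, a co-receptor of DKK1, went from 25.2 ± 0.134 to 15.3 ± 0.735 FPKM (-0.69, adjusted p = 0.000271). DKK3, a divergent relative of DKK1, was higher (54.2 ± 1.12 to 67.8 ± 2.87 FPKM, adjusted p = 0.00445, and 0.0618 without Control replicate 2).

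Of 18 cytoplasmic transducers tested, 3 were higher (16.7%) and 5 lower (27.8%), beside 24% and 13.1% of all genes tested. With median-of-ratios scaling, 1 transducer was higher and 6 were lower. Under that scaling the higher calls of DVL3 (adjusted p = 0.0976) and CSNK1D (0.264) were lost. The 2 GSK3 genes, whose kinases phosphorylate beta-catenin, differed in direction. GSK3A was at 31.4 and 30.2 FPKM under Control transfection, against 44.2 and 41.0 FPKM after siSIRT1 (0.46, adjusted p = 0.00126). GSK3B was at 6.66 and 7.94 against 4.38 and 5.61 FPKM (-0.47, adjusted p = 0.0258). The GSK3B call was lost without Control replicate 2 (adjusted p = 0.179), without siSIRT1 replicate 1 (0.110) and with no expression filter (0.102). CSNK1A1, the priming kinase for beta-catenin, went from 79.6 ± 2.93 to 59.9 ± 7.38 FPKM (-0.41, adjusted p = 0.00586, and 0.0515 with no expression filter). DVL1, which relays the signal from Frizzled, went from 84.6 ± 3.35 to 70.6 ± 1.47 FPKM (-0.26, adjusted p = 0.0103), a call lost without Control replicate 1 (0.158) or 2 (0.0579) and without the variance trend (0.0554).

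Of 15 nuclear cofactors tested, 4 were higher and 2 lower, or 3 and 3 with median-of-ratios scaling. The shares of 26.7% higher and 13.3% lower were close to the 24% and 13.1% of all genes tested. The Groucho family of TCF corepressors was split, with TLE1 at 14.4 and 12.7 against 8.97 and 9.60 FPKM (-0.50, adjusted p = 0.0043) and TLE3 at 14.8 and 15.6 against 20.2 and 21.7 FPKM (0.44, adjusted p = 0.00313). Without Control replicate 1 the adjusted p of TLE1 was 0.0537. TLE5, a short member of the family without the repression domain, was higher (log2 fold change 0.35, adjusted p = 0.00284, and 0.0564 without Control replicate 2). HDAC1, a histone deacetylase that works with Groucho proteins, was at 75.4 and 79.8 against 107 and 102 FPKM (0.43, adjusted p = 0.00102).

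Of 11 commonly cited target genes tested, 2 were higher (18.2%) and 5 lower (45.5%), beside 24% and 13.1% of all genes tested. With median-of-ratios scaling, 1 of the 11 targets was higher and 6 were lower. CD44, a hyaluronan receptor and the most abundant of them, was at 433.5 and 433.2 FPKM under Control transfection, against 225 and 247 FPKM after siSIRT1 (-0.88, adjusted p = 4.2e-05). VEGFA, the angiogenic growth factor, was at 57.7 and 60.0 FPKM under Control transfection, against 32.0 and 30.3 FPKM after siSIRT1 (-0.89, adjusted p = 3.6e-05). JUN, FOSL1 and SOX9 were the other lower targets, with log2 fold changes of -0.66, -0.65 and -0.60 (adjusted p = 0.000681, 0.000159 and 0.00021 by limma). The higher targets were CCND1 and MMP7. CCND1 was at 63.30 and 65.71 FPKM under Control transfection, against 71.65 and 76.49 FPKM after siSIRT1 (0.20, adjusted p = 0.0375 by limma). Its call was lost with median-of-ratios scaling (adjusted p = 0.223). MMP7, a matrix protease, was higher at a low level (0.42 and 0.72 against 1.82 and 1.35 FPKM, adjusted p = 0.00954), and lost its call without Control replicate 1 (0.0604) or siSIRT1 replicate 1 (0.0567). With a Control mean of 0.57 FPKM, MMP7 passed the expression filter only through its siSIRT1 values (adjusted p = 0.0387 by limma with no filter). MYC, chosen after its values were seen because it is the most cited target, was at 33.2 and 32.5 against 29.6 and 30.8 FPKM and did not pass the test (-0.12, adjusted p = 0.196). Of the 6 partners of beta-catenin at cell junctions, 2 were lower (33.3%, beside 13.1% of all genes tested), or 3 with median-of-ratios scaling. CDH3, a classical cadherin, went from 6.80 and 8.07 to 4.03 and 3.77 FPKM (-0.78, adjusted p = 0.00139). CDH2, or N-cadherin, went from 15.63 and 15.55 to 11.35 and 11.48 FPKM (-0.42, adjusted p = 0.00427). JUP, the close relative of beta-catenin, was at 128 and 125 against 126 and 122 FPKM (-0.03, adjusted p = 0.741).

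The 3 of 80 list genes whose mean-centred log2(FPKM + 1) values over the 4 libraries were nearest to those of AXIN2 were CDH2 (Euclidean distance 0.081), WNT7B (0.091) and APC2 (0.095). This likeness rests on 4 libraries in 2 groups.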

How the data were processed

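RNA-seq libraries of PANC-1 cells (2 Control, 2 siSIRT1, grouped by their treatment labels) were used. The authors deposited 1 table of FPKM values per library, with isoforms pooled by gene. The submitters' processing notes name HISAT, Bowtie2, RSEM and ChIPseeker without versions or roles. The genome build is not given in the sources used here. How reads shared between related genes were assigned, whether counting used strand, and the tool behind the study's RNA-seq p-values are not given either.

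Genes were matched to current symbols by Entrez identifier (16846 of 16878). Values of log2(FPKM + 1) were fitted with limma 3.58.1 (R 4.3.3; eBayes with a mean-variance trend, no covariates) for 12191 genes averaging 1 FPKM or more, and p-values were adjusted by the Benjamini-Hochberg method (threshold 0.05). The fit was tested on simulated data with independent noise in each library and no trend on length or GC content. Such data cannot show how the p-values behave under those trends. Ratios within a library were compared by exact permutation tests. Coordinates, 3′ UTRs and transcript lengths came from canonical GENCODE transcripts on GRCh37. Depth was estimated from the FPKM steps of 86 to 109 single-transcript genes per library; reads per gene are approximate, and limits set at 3 reads allow for counting error alone.

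The 10 genes and the role lists were chosen with earlier results of these data known. Named from each list were up to 3 called genes with the largest absolute log2 fold change, the most abundant gene and genes listed at 0 in a group. TCF7L1, CCND1, MYC, WNT2B, WNT11, WNT16, JUN, FOSL1 and SOX9 were added after their values were seen. Alternatives were a pseudocount of 0.1, no expression filter, quantile and median-of-ratios scaling, no variance trend, a replicate block and leaving out each library. Removal of each library's lowess trend on GC content or transcript length was added after the data were seen.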

Additional observations from a re-analysis of the deposited data

How the results depend on the processing

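The 36 genes counted here are the 9 Wnt genes tested and those named by rule from the lists. Under the 10 alternatives that kept all libraries, 350 of their 360 fold changes kept their direction and their side of the threshold. Of the rest, 7 lost the threshold, 3 passed it newly and 0 reversed. Adding 0.1 in place of 1 FPKM raised the log2 fold changes of WNT6, RNF43 and MMP7 to 0.98, 1.34 and 1.35, and the length adjustment lowered that of TLE5 to 0.23. With 1 library left out, the lone library of a group was assumed to vary like the others. The calls over all genes then ran from 2691 to 4608, those among the 9 Wnt genes tested from 2 to 5, and those among the 80 list genes from 26 to 38; the low ends came without a Control library. The SIRT1 log2 fold change ran from -2.02 to -1.90, and the siSIRT1 minus Control difference of the log2 ratio of AXIN2 to AXIN1 from -0.46 to -0.35.

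Same-numbered libraries share only a number, and the differences between replicates 1 and 2 correlated at 0.12 over genes between the groups. In the fit with a replicate block, 5393 genes were called, including all 4521 called without it, and APC passed (adjusted p = 0.0493). The share of calls that were higher was 50.6% after the GC adjustment and 49.0% after the length adjustment, both chosen after seeing the data. Without siSIRT1 replicate 2 the log2 fold change of PORCN was -0.28. Among the Wnt genes described first, depth limits LEF1 and AXIN2 most. MMP7 and WNT6, called higher among the list genes, had fewer estimated reads than AXIN2 in every library. MMP7 had about 4 and 7 reads in Control against 17 and 13 in siSIRT1, and WNT6 9 and 15 against 22 and 28. RNF43, also called higher, had fewer reads than AXIN2 in Control (26 and 19) and more in siSIRT1 (66 and 59).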
